A study of Mus musculus with 64 samples.

Results

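The Vmn2r genes encode the vomeronasal type 2 receptors, and their chromatin was described here in splenic B cells, a cell type outside the vomeronasal organ, where they act. Members were the autosomal protein-coding genes whose symbol is Vmn2r followed by a number in the RefSeq table of GRCm38.p6, the assembly called mm10. There were 122 of them among 20665 autosomal protein-coding genes. The measure was the percent of a gene region, the gene body with 2 kb on each side, that was covered by called peaks.

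Peaks came from CUT&RUN, in which an antibody directs a nuclease to cut the chromatin around its target, on CD23+ B cells from the spleens of female mice. The mice were F1 hybrids (F1 mus x cast) of C57BL/6 mothers, which carried a heterozygous Xist deletion, and Mus musculus castaneus fathers, and the labels do not say which offspring inherited the deletion. Cells were unstimulated (0 h) or cultured for 12 or 24 h with CpG at 1 µM, a DNA ligand sensed by TLR9, and every group shared strain, sex, tissue and cell type. The antibodies recognised H3K27me3 (3, 3 and 4 libraries at 0, 12 and 24 h), H2AK119Ub (4, 3 and 5), H3K9me3 (4 at each time), and H3K27ac, Suz12 and Ring1B (3 at each time). The labels call the replicates biological, without naming animals. In all, 61 peak lists were used, and 3 IgG samples were not analysed here. The titles of the H3K9me3 samples spell the mark H3K29me3, whereas their antibody label reads H3K9me3, and the label was followed. The lists were read as peaks of the Cast allele, the paternal one, because that word is in each list's name.

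V2R receptors are G protein-coupled receptors of sensory neurons in the basal layer of the vomeronasal organ, where they bind peptide pheromones and signal through the G protein subunit Gαo. A mature neuron expresses very few of them, usually a single receptor together with a broadly expressed family C receptor (Vmn2r1 to Vmn2r7). The genes lie in tandem clusters of close copies. H3K9me3 is the mark of constitutive heterochromatin, H3K27me3 and H2AK119Ub are laid down by the Polycomb complexes that contain Suz12 and Ring1B, and H3K27ac marks active promoters and enhancers.

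The members fell into 18 clusters, defined as runs of members less than 1 Mb apart. The largest were on chromosome 7 (7:7212996-10176286, 24 members, called 7b here; 7:84940169-87037968, 15 members, 7e) and chromosome 17 (17:17703941-20596259, 22 members, 17a). Smaller ones described below are 7d (8 members) and 7c (4) on chromosome 7, 17b (7) on chromosome 17, 6a (9) on chromosome 6, 5a (10) on chromosome 5, 3a (7, the family C genes) on chromosome 3, and 10a and 10b (4 each) on chromosome 10. Vmn2r129 on chromosome 4 stood alone. Vmn2r122 is listed at the first 11.9 kb of chromosome 4, whereas the first chromosome 4 peak of any list starts at 3.05 Mb, so its 0 values carry no information. Vmn2r1 and Vmn2r2 overlap each other, and the regions of Vmn2r8, Vmn2r88 and Vmn2r89 also hold parts of Tmed11 or Gm7247.

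Promoters of 8 members are printed to show what these genes look like at their starts: 4 members with much H3K9me3, 2 with H3K27me3, and a pair of near-identical copies in which no antibody gave a peak. They were chosen after their values were seen. Each is the RefSeq window of GRCm38.p6 from 250 bases before to 50 bases after the gene start, 300 bases in all, read 5′ to 3′ on the gene's strand, and capitals mark every CG dinucleotide. The positions are chr7:85155853-85156152, minus strand, for Vmn2r67; chr7:85237655-85237954, minus strand, for Vmn2r68; chr17:20048156-20048455, minus strand, for Vmn2r104; chr17:22573224-22573523, minus strand, for Vmn2r111. They are chr17:17703691-17703990, plus strand, for Vmn2r90 and chr4:156330853-156331152, plus strand, for Vmn2r129, and for the copies chr7:7566737-7567036, minus strand, for Vmn2r33 and chr7:8383189-8383488, minus strand, for Vmn2r44.
Vmn2r67: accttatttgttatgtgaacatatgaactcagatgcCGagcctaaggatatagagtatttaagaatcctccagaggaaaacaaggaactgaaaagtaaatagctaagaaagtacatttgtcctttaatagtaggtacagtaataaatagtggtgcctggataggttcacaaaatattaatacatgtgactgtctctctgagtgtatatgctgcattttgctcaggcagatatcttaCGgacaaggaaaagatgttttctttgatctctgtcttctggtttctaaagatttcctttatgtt
Vmn2r68: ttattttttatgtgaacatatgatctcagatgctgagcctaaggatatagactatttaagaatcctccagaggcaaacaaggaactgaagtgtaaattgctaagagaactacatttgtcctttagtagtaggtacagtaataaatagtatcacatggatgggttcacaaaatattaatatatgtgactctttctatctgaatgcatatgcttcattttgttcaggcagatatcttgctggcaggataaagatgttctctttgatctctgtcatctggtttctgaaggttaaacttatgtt
Vmn2r104: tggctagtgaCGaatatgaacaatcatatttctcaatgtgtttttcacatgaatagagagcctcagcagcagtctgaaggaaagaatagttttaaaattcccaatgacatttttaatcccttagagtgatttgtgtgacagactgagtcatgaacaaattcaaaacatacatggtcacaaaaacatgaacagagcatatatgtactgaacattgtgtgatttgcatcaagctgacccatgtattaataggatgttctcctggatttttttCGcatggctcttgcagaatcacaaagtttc
Vmn2r111: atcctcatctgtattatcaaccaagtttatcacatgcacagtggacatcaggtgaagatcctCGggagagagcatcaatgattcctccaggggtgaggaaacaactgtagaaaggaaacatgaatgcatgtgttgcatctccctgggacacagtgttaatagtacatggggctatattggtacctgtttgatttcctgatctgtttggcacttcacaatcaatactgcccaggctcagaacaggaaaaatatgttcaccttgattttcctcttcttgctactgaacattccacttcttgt
Vmn2r90: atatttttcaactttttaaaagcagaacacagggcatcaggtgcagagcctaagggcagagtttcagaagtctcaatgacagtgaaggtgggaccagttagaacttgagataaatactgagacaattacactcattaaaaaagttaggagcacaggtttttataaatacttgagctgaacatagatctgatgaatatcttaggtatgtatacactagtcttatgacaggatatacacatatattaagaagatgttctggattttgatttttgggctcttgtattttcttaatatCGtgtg
Vmn2r129: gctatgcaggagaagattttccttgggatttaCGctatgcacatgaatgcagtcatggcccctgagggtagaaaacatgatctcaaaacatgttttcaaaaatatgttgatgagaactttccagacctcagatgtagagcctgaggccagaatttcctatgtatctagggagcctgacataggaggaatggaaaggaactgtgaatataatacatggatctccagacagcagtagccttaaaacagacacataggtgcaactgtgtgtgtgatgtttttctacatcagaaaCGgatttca
Vmn2r33: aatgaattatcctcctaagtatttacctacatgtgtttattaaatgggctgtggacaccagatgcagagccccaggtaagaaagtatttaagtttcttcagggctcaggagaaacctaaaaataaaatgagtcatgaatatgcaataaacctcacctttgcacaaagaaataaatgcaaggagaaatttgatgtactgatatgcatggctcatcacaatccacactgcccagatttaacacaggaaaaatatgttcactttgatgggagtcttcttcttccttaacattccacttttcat
Vmn2r44: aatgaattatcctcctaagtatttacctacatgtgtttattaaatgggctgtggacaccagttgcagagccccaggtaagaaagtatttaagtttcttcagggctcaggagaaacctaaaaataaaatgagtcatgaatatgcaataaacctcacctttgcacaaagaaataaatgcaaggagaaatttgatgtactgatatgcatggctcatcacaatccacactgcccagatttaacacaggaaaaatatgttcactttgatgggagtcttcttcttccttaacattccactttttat

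All 8 windows hold 0 to 2 CG dinucleotides. Over the 115 members with a promoter in the table the median was 1, and 27.8% had none, against a median of 14 over 16457 autosomal promoters, of which 4.96% had none. At least 10 were present in 0.87% of Vmn2r promoters, against 58.6% of all. The low content was shared with Vmn1r (205 promoters), Olfr (938) and Tas2r (31), the other chemoreceptor families, which each had a median of 1. H3K9me3 peaks overlapped the Vmn2r67 window in 3, 3 and 4 of 4 libraries at 0, 12 and 24 h and the Vmn2r104 window in 3, 4 and 4. For Vmn2r68 the libraries numbered 2, 3 and 3. The Vmn2r129 window was overlapped by H3K27me3 peaks in 0 of 3, 2 of 3 and 4 of 4 libraries.

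Many members had no peak of any kind. In 43 of 122 members (35.2%) no antibody gave a peak in any of the 61 libraries, against 11.4% of all autosomal protein-coding genes and 7.22% of 8577 other genes of like length (9.34 to 47.2 kb). Suz12 and Ring1B lists, which hold a fixed top share of signal blocks, had no peak in any of 18 libraries for 51 members (41.8%). This compares with 15.5% of all genes, 75.2% of Vmn1r, 64.9% of Olfr and 40% of Tas2r genes. The promoter window of a member without any peak had a median identity of 95.5% to its nearest relative in the family (38 windows), against 89.0% for members with a peak (77 windows). Cluster 7b was the extreme case: 22 of its 24 members had no peak of any kind, and the median identity of its 22 windows was 99.0%. The Vmn2r33 and Vmn2r44 windows above are 99.3% identical. Identity and missing peaks did not always go together: the windows of Vmn2r111 and Vmn2r112 are 98.3% identical and both genes had peaks, whereas Vmn2r3 (51.0%) and Vmn2r17 (74.3%) had none. A value of 0 in such a gene does not show that a mark is absent, since reads from identical copies cannot be placed, and whether this accounts for the missing peaks was not tested.

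**Figure D1:**
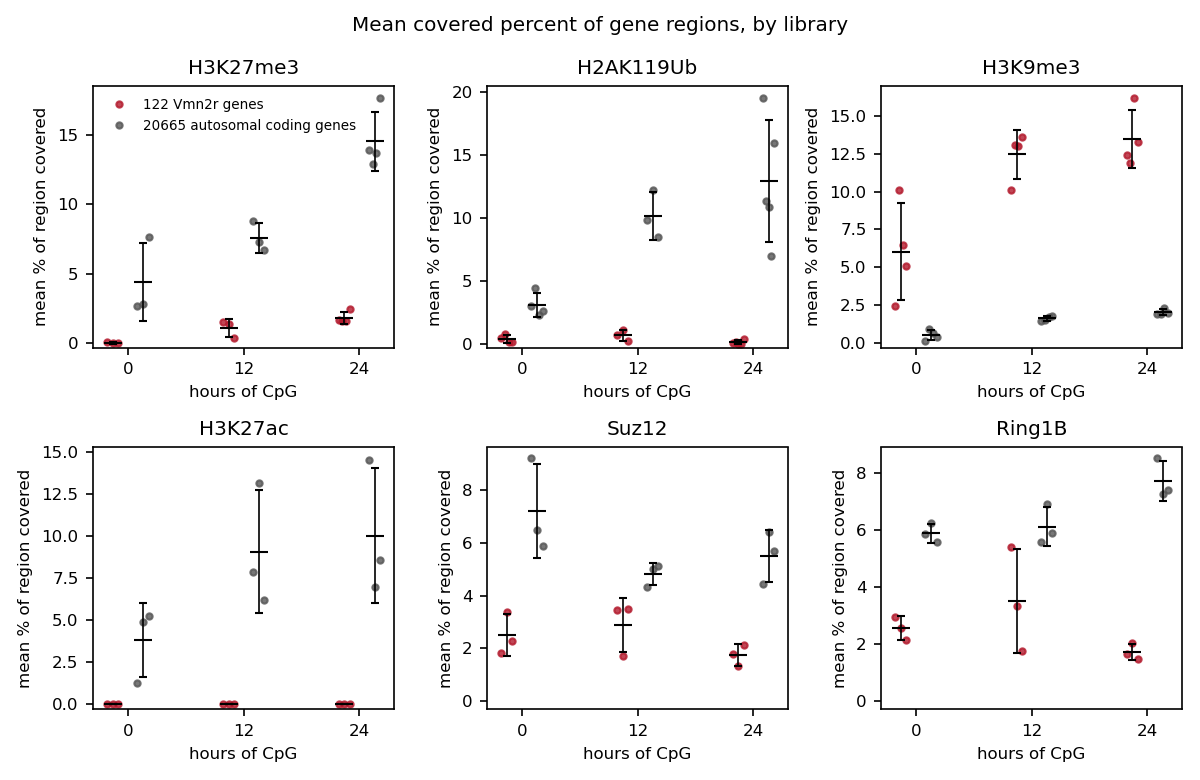
Mean percent of the region covered, by antibody and hours of CpG, with 1 point per library for the 122 Vmn2r genes (red) and for the 20665 autosomal protein-coding genes (grey). Bars are the mean and SD of libraries. The Vmn2r points are above the grey ones for H3K9me3 at each time and at 0 for H3K27ac.

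Of the 6 targets, H3K9me3 covered most of this family. At 0, 12 and 24 h it covered a mean of 6.03% ± 3.21, 12.5% ± 1.60 and 13.4% ± 1.91 of Vmn2r regions (SD, n = 4 each). Over all autosomal protein-coding genes the means were 0.527% ± 0.334, 1.63% ± 0.155 and 2.03% ± 0.198. By library, the Vmn2r mean was 2.42, 10.13, 6.47 and 5.11% at 0 h, 10.08, 13.10, 13.02 and 13.6% at 12 h, and 12.4, 11.9, 16.2 and 13.3% at 24 h. Vmn2r genes were above all genes, above the 396 other genes within 500 kb of a cluster, above Vmn1r and above Olfr genes in all 12 libraries. The Tas2r bitter taste receptors were higher still, at 24.0, 32.6 and 38.7%. Over the 79 members with any peak, the H3K9me3 means were 9.32, 19.2 and 20.8%.

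The time course in this mark depends on how unequal lists are compared. Autosomal coverage of the H3K9me3 lists ranged over 0.936-5.07% (0 h), 7.20-8.73% (12 h) and 8.87-10.51% (24 h), and the weakest peak kept had a highest signal of 9-10, 6-7 and 5-7. The Vmn2r mean was 7.41 percentage points higher at 24 h than at 0 h, but once each library was divided by its autosomal coverage the sign turned (-5.24 points on the same scale). The ratio of the Vmn2r mean to the mean of all genes at these times was 12.5 ± 2.52, 7.65 ± 0.755 and 6.60 ± 0.350 (SD, n = 4 each), and the 0 h libraries did not overlap the later ones. The covered share of the family was thus larger after CpG while its ratio to the mean of all genes was smaller. Read depth is unknown, so depth and mark cannot be told apart here.

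**Figure D2:**
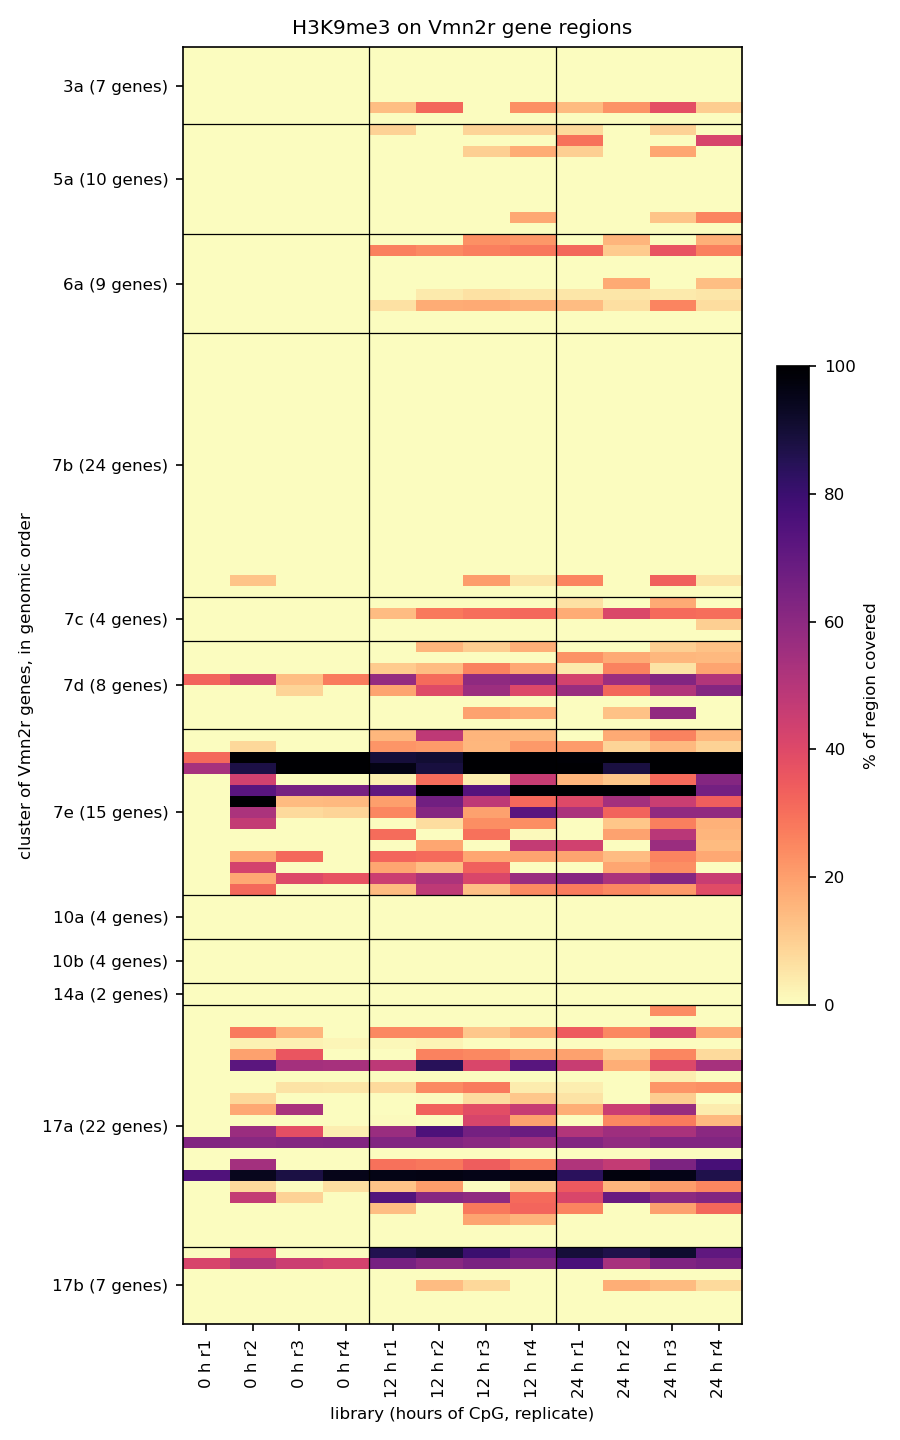
Percent of each Vmn2r gene region covered by H3K9me3 peaks, with genes as rows in genomic order within the clusters of 2 or more members, and the 12 libraries as columns. Dark rows in 7e, 17a and 17b are covered in nearly every library, and 7b, 10a and 10b are blank apart from 1 row of 7b.

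H3K9me3 was concentrated in a few clusters. In 7e all 15 members had a peak in some library, and the cluster mean was 23.2, 39.2 and 41.1% at 0, 12 and 24 h. In 17a, 18 of 22 members had a peak, with means of 13.6, 23.3 and 23.8%. The means were 7.84, 21.4 and 22.7% in 17b and 3.92, 16.0 and 19.7% in 7d. At 0 h the clusters 3a, 5a, 6a and 7c had none in any library. No H3K9me3 peak touched a member of 10a or 10b at any time. Of the family C genes only Vmn2r6 had any, at 0% in all 4 libraries at 0 h, at 13.6, 32.0, 0 and 23.2% at 12 h and at 14.1, 22.5, 38.1 and 10.36% at 24 h. Its difference of 21.3 ± 7.22 points (SE) between 24 and 0 h did not pass (adjusted p = 0.057). Vmn2r1, Vmn2r2, Vmn2r3, Vmn2r4, Vmn2r5 and Vmn2r7 had no H3K9me3, H3K27me3, H2AK119Ub or H3K27ac peak.

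By mean H3K9me3 over the 12 libraries, 12 members were among the top 1% (207 genes) of autosomal protein-coding genes, and 3 of them ranked 8, 9 and 11. Vmn2r67 in 7e was covered by 31.5, 100, 100 and 100% at 0 h, 89.2, 90.4, 100 and 100% at 12 h, and 99.1, 100, 100 and 100% at 24 h. Its neighbour Vmn2r68 was covered by 53.2, 87.2, 100 and 100% at 0 h, 96.3, 88.3, 100 and 100% at 12 h, and 100, 88.2, 100 and 100% at 24 h. Vmn2r104 in 17a had 74.8, 94.4, 87.8 and 95.3% at 0 h, 96.0, 96.3, 95.4 and 96.5% at 12 h, and 83.9, 97.5, 95.4 and 86.7% at 24 h. These receptors were thus nearly filled before stimulation, apart from the shortest list, 0 h replicate 1, and their times overlap.

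The peaks over them were long. Those overlapping Vmn2r67 had a median length of 44.1 kb and the median percentile of their total signal within their lists was 99.8. For Vmn2r68 the length was 25.0 kb and for Vmn2r104 it was 32.1 kb. Vmn2r101 in 17a had a constant partial coverage: 62.2, 60.9, 62.1 and 62.5% at 0 h, 62.6, 62.6, 60.5 and 55.7% at 12 h, and 62.4, 58.3, 62.6 and 62.5% at 24 h. A further gene of 7e, Vmn2r70, had 0, 72.8, 65.2 and 65.2% at 0 h, 70.6, 100, 73.8 and 99.6% at 12 h and 100, 100, 100 and 65.9% at 24 h, and it did not pass (adjusted p = 0.10). None of these 5 was called between times (adjusted p from 0.10 to 0.97, limma moderated F-test). After scaling by autosomal coverage Vmn2r67 and Vmn2r68 were called lower at 24 h than at 0 h. Both were at or near full coverage in most libraries of each time, so dividing by the larger coverage at 24 h gives lower values. No decrease of the mark is read from this.

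Between times, 50 members had a peak in at least 3 of the 12 libraries and were tested. Of these, 16 (32.0%) were higher at 24 h than at 0 h and 0 were lower, where 51.4% of the 2332 genes tested genome-wide were called higher. In addition, 13 were higher at 12 h than at 0 h (39.5% of all tested) and 3 at 24 h than at 12 h (15.2%). The median difference between 24 and 0 h was 14.1 points over the tested members and 19.8 points over the 1247 tested autosomal protein-coding genes. Of the 50, 20 (40.0%) had no peak in any 0 h library, against 55.3% of the autosomal protein-coding genes tested, and 14 (28.0%) had one in 3 or more 0 h libraries, against 18.6%. Of the 16 called, 7 had no peak at 0 h and entered the test through the later libraries alone. Calls were counted with the limma moderated F-test over the 3 times and Benjamini-Hochberg adjustment over all genes tested. The count was 9 without 0 h replicate 1 and 10 without 0 h replicate 4, each of 50 tested, where 37.7% of all genes were called. After scaling by autosomal coverage it was 9 higher and 2 lower, where 31.5% and 1.03% of all genes were. The 2 lower were Vmn2r67 and Vmn2r68, which were at or near full coverage in most libraries. With stricter lists, which keep the stronger peaks of each list by total signal, 7 of 35 tested were called, against 43.4% of all genes. With lists of equal length, cut to the same number of peaks, 0 of 15 were, and 0 of 426 genes passed.

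**Figure D3:**
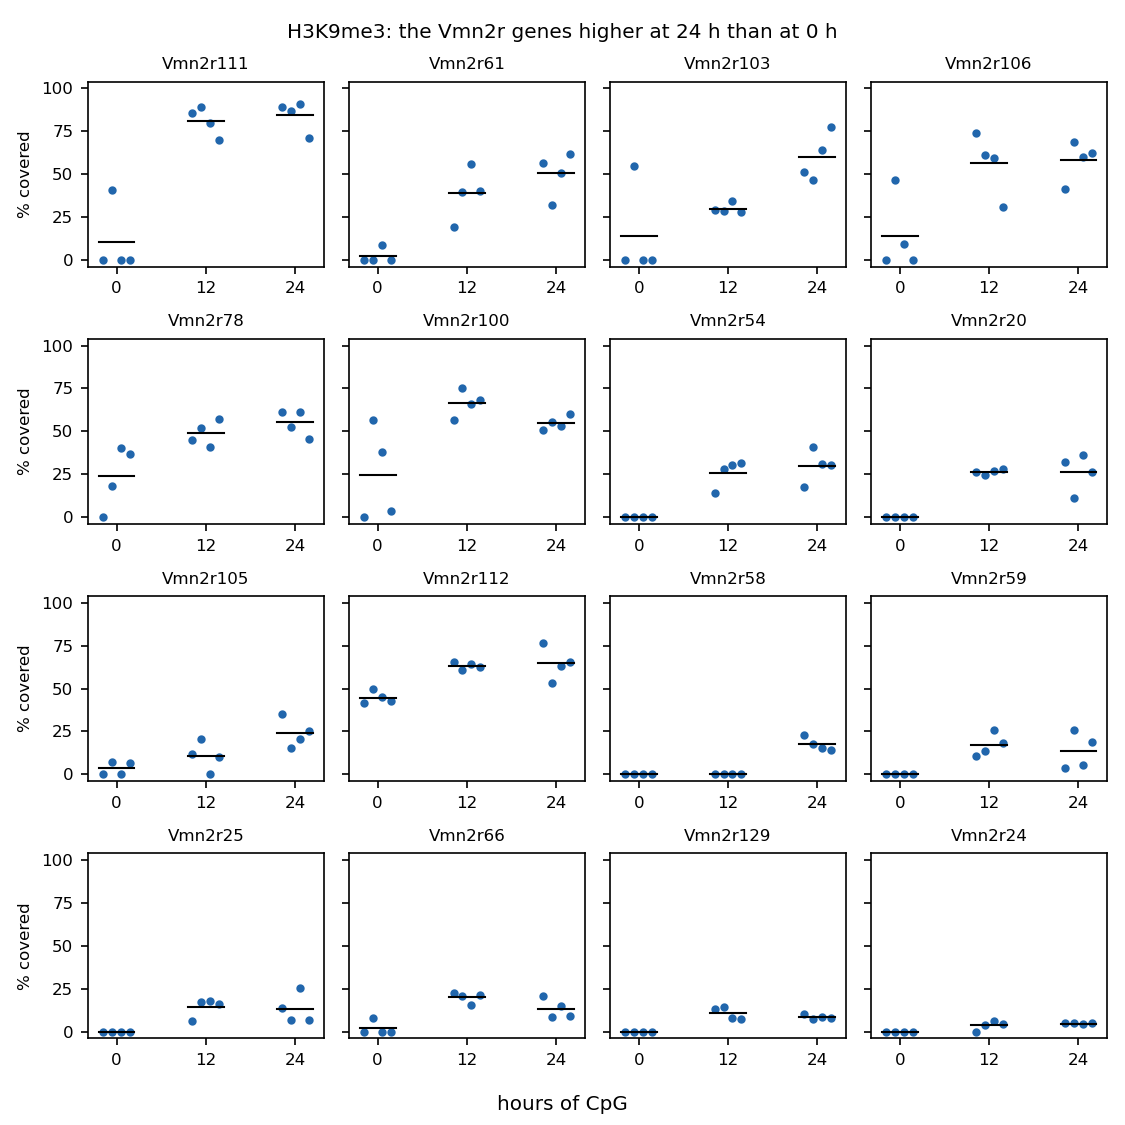
Percent of the gene region covered by H3K9me3 peaks in each library (points) and the mean (line) at 0, 12 and 24 h of CpG, for the 16 Vmn2r genes higher at 24 h than at 0 h, ordered by that difference. Vmn2r58 has points above 0 at 24 h alone, whereas Vmn2r112 starts from 41.6% or more.

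The largest difference was in 17b. Vmn2r111, at 17:22547941-22573273, was covered by 0, 40.5, 0 and 0% at 0 h, 85.9, 89.2, 79.9 and 69.9% at 12 h and 89.1, 86.5, 91.0 and 71.0% at 24 h. The 0 h libraries lay below all later ones, and the difference between 24 and 0 h was 74.3 ± 10.36 points (SE, adjusted p = 0.00064). Vmn2r112, its neighbour with a promoter 98.3% identical, had 41.6, 49.8, 44.9 and 42.6% at 0 h, 65.4, 60.5, 64.6 and 62.5% at 12 h and 76.4, 53.5, 63.3 and 65.4% at 24 h. That difference of 19.9 ± 6.62 points passed (adjusted p = 0.042), but its sign turned after scaling by autosomal coverage and with lists of equal length. The other 5 members of 17b reached at most 17.1% in any H3K9me3 library.

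In 7d, Vmn2r61 had 0, 0, 8.69 and 0% at 0 h, 18.9, 39.6, 56.0 and 40.3% at 12 h and 56.7, 32.0, 50.9 and 62.0% at 24 h. The groups at 0 and 24 h do not overlap, and the difference was 48.2 ± 8.34 points (adjusted p = 0.0026). Vmn2r58, in the same cluster, was at 0 in all libraries at 0 and 12 h and at 22.8, 17.6, 15.2 and 14.5% at 24 h, the one member with this late pattern among those called. It entered the test through the 24 h libraries alone, so it had to differ, and its test is not given as support. It was named after its values were seen. Vmn2r60, the most covered gene of 7d, had 32.4, 43.5, 13.3 and 27.5% at 0 h, 58.0, 31.1, 59.4 and 61.0% at 12 h and 42.7, 56.0, 62.2 and 50.8% at 24 h, and missed the threshold (adjusted p = 0.063).

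In 17a, Vmn2r103 had 0, 54.6, 0 and 0% at 0 h, 29.3, 28.3, 34.3 and 27.7% at 12 h and 51.4, 46.7, 63.9 and 77.3% at 24 h (difference 46.2 ± 12.0 points, adjusted p = 0.021). Vmn2r106 had 0, 46.8, 9.36 and 0% at 0 h, 73.9, 61.1, 59.2 and 31.0% at 12 h and 41.1, 68.9, 59.9 and 62.5% at 24 h (difference 44.0 ± 12.4 points, adjusted p = 0.018). In both genes 0 h replicate 2, the 0 h list with the most autosomal coverage, reached into the range of the later libraries. Vmn2r100 and Vmn2r105 of this cluster also rose, by 30.5 ± 11.7 and 20.6 ± 5.17 points (adjusted p = 0.026 and 0.018). Vmn2r78, a member of 7e, rose by 31.5 ± 9.05 points (adjusted p = 0.028). Scaling ended the calls of Vmn2r66, Vmn2r103, Vmn2r105 and Vmn2r106, and those of Vmn2r78, Vmn2r100 and Vmn2r112, whose sign turned. Stricter lists ended the calls of Vmn2r20, Vmn2r54, Vmn2r59, Vmn2r66, Vmn2r78, Vmn2r103, Vmn2r105, Vmn2r106 and Vmn2r112, and gene bodies alone those of Vmn2r24, Vmn2r25, Vmn2r59, Vmn2r66 and Vmn2r129. The calls of Vmn2r25, Vmn2r59, Vmn2r78, Vmn2r100, Vmn2r103, Vmn2r106 and Vmn2r112 were each lost when 1 library was left out, among them 0 h replicate 1, without which the H3K9me3 count was 9. Vmn2r93 in 17a, with 0, 72.0, 53.9 and 53.4% at 0 h, 48.4, 84.0, 41.3 and 73.0% at 12 h and 45.3, 16.9, 40.2 and 53.6% at 24 h, showed no call in either direction (adjusted p = 0.40).

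Genes of smaller clusters gained coverage from 0 in every 0 h library. Vmn2r54 and Vmn2r20 entered the test through the later libraries alone, so their tests are not given as support. Vmn2r54 in 7c had 13.9, 28.1, 30.2 and 31.4% at 12 h and 17.4, 40.8, 31.0 and 30.2% at 24 h (difference between 24 and 0 h 29.9 ± 5.42 points). Vmn2r20 in 6a had 26.2, 24.3, 26.9 and 28.2% at 12 h and 31.9, 10.9, 36.4 and 26.3% at 24 h (difference 26.4 ± 4.97 points). The means at 12 and 24 h were 25.9 and 29.9% in Vmn2r54 and 26.4 and 26.4% in Vmn2r20. The other called members were Vmn2r59, Vmn2r25, Vmn2r66, Vmn2r129 and Vmn2r24, with differences of 13.6, 13.3, 11.4, 8.35 and 4.67 points. All of them but Vmn2r66 also had no peak at 0 h. In every 24 h library the strongest peak overlapping Vmn2r24 and Vmn2r25 was the same one, such as 6:123816296-123825626 in replicate 1. The calls of these neighbours are thus not independent.

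Elsewhere coverage was sparse. Vmn2r9 in 5a had 29.6, 0, 0 and 41.4% at 24 h and 0 in the 8 other libraries. Vmn2r51, the one covered gene of 7b, had 0, 12.2, 0 and 0% at 0 h, 0, 0, 20.6 and 5.43% at 12 h and 25.4, 0.16, 33.3 and 5.28% at 24 h. Vmn2r18 and Vmn2r118, which stand alone on chromosomes 5 and 17, each had a peak in 1 library, at 24.4 and 5.45%. The replicates of a time disagree in each of these genes.

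Position within a cluster was compared next. In 7e the member bodies were less covered than the space between them, at 20.7, 36.8 and 37.6% of bodies at 0, 12 and 24 h against 28.9, 51.6 and 54.6% of the space between, with the bodies lower in all 12 libraries. In 17a the values at 24 h were 23.8% of bodies and 30.1% of the space between, with bodies above it in 0 of 4 libraries. In 17b the bodies had 27.5% and the space between 7.94% at 24 h, with bodies above it in all 12 libraries of the 3 times. In 7d bodies had 24.9% and the space between 18.3% at 24 h, above it in 4 of 4 libraries. In 7e and 17a coverage was thus found in both receptor genes and spacers, with more in the spacers at 24 h, whereas in 17b most of it among members sat on Vmn2r111 and Vmn2r112.

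Other genes inside these clusters shared the coverage. Of the 16 non-member genes in 7e, 15 had an H3K9me3 peak, and their mean was 66.0% at 24 h. They were mostly Olfr genes, odorant receptors, such as Olfr299, Olfr297 and Olfr295 with 100% in all 4 libraries at 24 h, and Folh1, a carboxypeptidase gene, with 61.2% ± 10.59. In 17a, 4 of 11 had a peak, including the formyl peptide receptor genes Fpr-rs7 at 100% and Fpr-rs6 at 84.6% ± 30.8 (SD, n = 4).

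**Figure D4:**
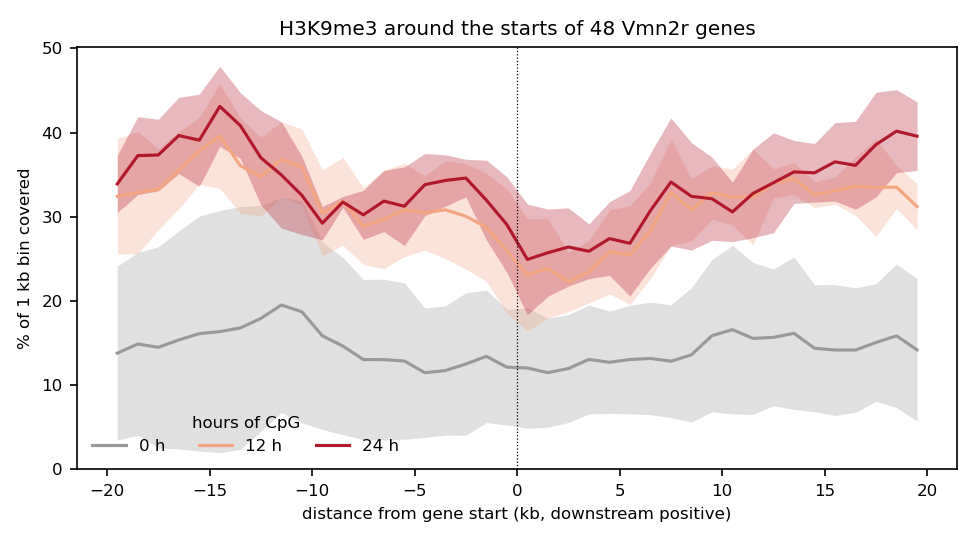
Mean percent of 1 kb bins covered by H3K9me3 peaks from 20 kb before to 20 kb after the gene start, over the 48 tested Vmn2r genes with a known start, at 0, 12 and 24 h (lines, with bands of 1 SD over 4 libraries). The 24 h line is lowest just after the start and there is no summit at the start.

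Around the gene start, the 48 tested members with a RefSeq start showed no summit of H3K9me3. At 24 h the bin just after the start was covered at 24.9% ± 6.58 (SD, n = 4), against 43.1% ± 4.76 in the bin centred 14.5 kb upstream and 39.6% ± 4.08 in the bin centred 19.5 kb downstream. At 0 h the profile stayed between 11.5 and 19.5%. Bins share genes and libraries, neighbouring windows overlap in tandem clusters, and no test was made.

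H3K27me3 touched few members. At 0, 12 and 24 h it covered 0.041% ± 0.071, 1.10% ± 0.638 and 1.84% ± 0.409 of Vmn2r regions (SD, n = 3, 3 and 4). All autosomal protein-coding genes averaged 4.42, 7.59 and 14.5%, and the Vmn2r mean was below that of all genes, Vmn1r, Olfr and the neighbouring genes in all 10 libraries. Peaks were found in 10 members (8.20%), against 44.0% of all genes, 8.26% of Vmn1r, 16.5% of Olfr and 11.4% of Tas2r genes. Of these 10, 4 also had an H3K9me3 peak (Vmn2r129, Vmn2r57, Vmn2r8 and Vmn2r90), as did 59 of the 122 members (48.4%).

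The H3K27me3 lists too were unequal, with autosomal coverage of 1.21-3.84% (0 h), 3.29-5.35% (12 h) and 8.18-12.6% (24 h). The weakest peak kept had a highest signal of 2.93-6.90, 3.61-5.35 and 6 at these times. Whether the signal was scaled alike at each time is unknown, so depth, processing and mark cannot be told apart. For this mark 6 members could be tested, and 5 rose between 0 and 24 h, where 56.5% of 11914 genes were called higher (6730 higher and 1 lower). Of the 5, 4 had no peak at 0 h and entered the test through later libraries alone. After scaling by autosomal coverage the split over all genes was 16% higher and 3.75% lower, and 3 of the 5 members remained called. Without 0 h replicate 1, and likewise without 0 h replicate 2, 3 of 6 members were called, with Vmn2r57 and Vmn2r83 lost. Of all genes, 34.8% and 34.3% were called in these settings. The count was 2 of 3 tested with stricter lists and 3 of 6 with gene bodies alone, where 54.7% and 52.6% of all genes were called. Between 0 and 12 h, 2 of the 6 rose (8.41% of all genes tested), and between 12 and 24 h 3 did (46.4%). None could be tested with lists of equal length.

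**Figure D5:**
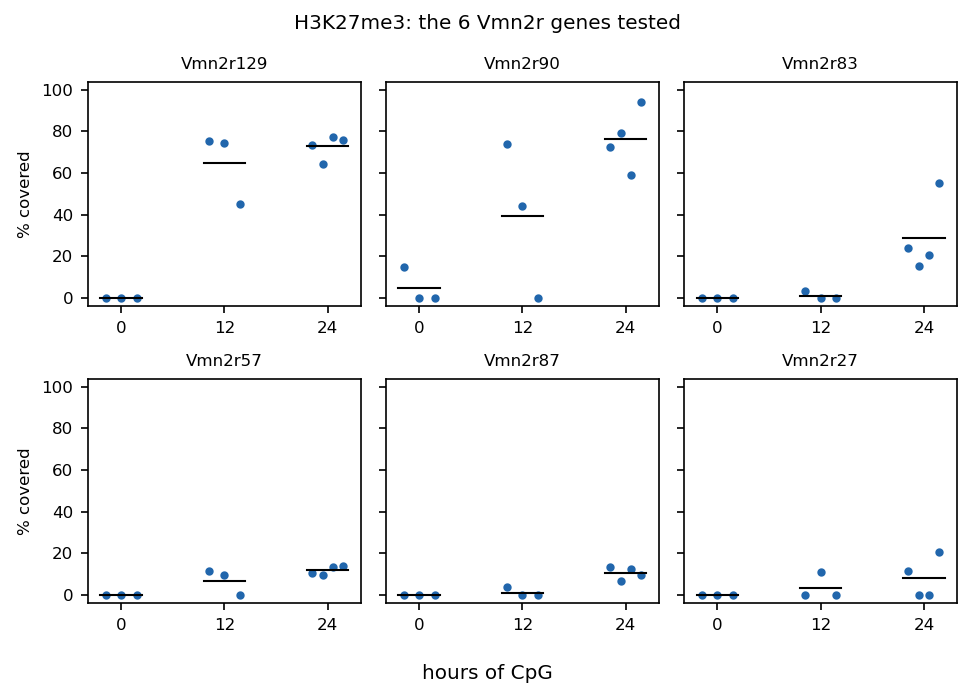
Percent of the gene region covered by H3K27me3 peaks in each library (points) and the mean (line) at 0, 12 and 24 h of CpG, for the 6 Vmn2r genes tested. Vmn2r129 and Vmn2r90 reach 59.1 to 94.3% at 24 h, and the others stay lower.

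Vmn2r129, at 4:156331103-156339499, was at 0 in the 3 libraries at 0 h, at 75.3, 74.3 and 45.0% at 12 h and at 73.6, 64.5, 77.6 and 76.1% at 24 h. The 0 h libraries lay below all later ones (difference between 24 and 0 h 72.9 ± 9.08 points, SE). Vmn2r129 entered the test through the later libraries alone, so its test is not given as support. Its H3K9me3 lay in the flanks, with none in the gene body. Vmn2r90, at 17:17703941-17734167 on the edge of 17a, had 15.1, 0 and 0% at 0 h, 73.8, 44.2 and 0% at 12 h and 72.7, 79.5, 59.1 and 94.3% at 24 h (difference 71.4 ± 15.9 points, adjusted p = 0.015). This gene was not called after scaling (adjusted p = 0.66). Its H3K9me3 was 0 in 11 of 12 libraries.

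Vmn2r83 in 10a had 0% in the 3 libraries at 0 h, 3.26, 0 and 0% at 12 h and 23.9, 15.3, 20.7 and 55.3% at 24 h (difference 28.8 ± 8.24 points). Vmn2r87 in 10b had 0% at 0 h, 3.65, 0 and 0% at 12 h and 13.4, 6.57, 12.7 and 9.43% at 24 h (difference 10.52 ± 1.80 points). Vmn2r57, the first gene of 7d, had 0% at 0 h, 11.3, 9.64 and 0% at 12 h and 10.45, 9.64, 13.6 and 13.9% at 24 h (difference 11.9 ± 2.78 points). These genes too entered the test through the later libraries alone, so their tests are not given as support. Vmn2r83 and Vmn2r87, 2 of the 5 genes that gained H3K27me3, thus lie in 10a and 10b, where no member region had H3K9me3. The calls of Vmn2r83 and Vmn2r87 were lost with stricter lists and with gene bodies alone, and that of Vmn2r57 with stricter lists and after scaling. Vmn2r27 in 6a had 11.4, 0, 0 and 20.9% at 24 h and did not pass (adjusted p = 0.33).

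H2AK119Ub was found on 3 members (2.46%), Vmn2r26, Vmn2r27 and Vmn2r129. The share was 59.0% of all genes, 4.78% of Vmn1r, 7.61% of Olfr and 5.71% of Tas2r genes. Of the 3 members 0 were called, where 33.2% of 13845 genes changed. None had an unadjusted p under 0.05, and none was called by limma without the trend and robust options. Vmn2r27 had 53.2, 48.6, 12.8 and 0% at 0 h, 27.7, 27.1 and 0% at 12 h and 12.5, 13.2, 0, 0 and 0% at 24 h (adjusted p = 0.21). Vmn2r26 had 0, 49.9, 0 and 18.1% at 0 h, 14.7, 48.5 and 24.9% at 12 h and 0 in the 5 libraries at 24 h (adjusted p = 0.10). Vmn2r129 had 0% in the 4 libraries at 0 h, 44.0, 59.8 and 0% at 12 h and 45.7% in 1 of the 5 libraries at 24 h (adjusted p = 0.14). The replicates of a time differ widely in all of these genes. The Vmn2r mean was 0.374, 0.674 and 0.117% at 0, 12 and 24 h, against 3.08, 10.16 and 12.9% over all genes.

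H3K27ac was not found on any of the 122 members in any of 9 libraries, whereas 46.7% of autosomal protein-coding genes had a peak in at least 1 and 1.46% of the 9342 genes tested changed. It was also rare in the other chemoreceptor families, with a peak on 0.43% of Vmn1r, 0.45% of Olfr and 2.86% of Tas2r genes. The B cell identity of the samples was visible in the same lists: at 0, 12 and 24 h, 9, 10 and 9 of 10 B cell marker genes carried H3K27ac in at least 2 libraries. The markers of vomeronasal sensory neurons, Omp, Trpc2, Gnao1 and Bcl11b, were at 0 in all 9. Of 6 T cell markers 2, 3 and 3 carried it, with Cd3e, Cd4 and Cd8a at 0, and of 4 myeloid markers 0, 0 and 2 did, with Lyz2 and Cd14 at 0. Of 4 erythroid markers 0 did at each time. In bulk samples fewer cells of a type and less of a mark per cell cannot be told apart.

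Suz12 and Ring1B each had peaks on 63 members in at least 1 of 9 libraries. The Vmn2r mean was 2.50, 2.90 and 1.75% for Suz12 and 2.55, 3.497 and 1.70% for Ring1B at 0, 12 and 24 h, below all genes (7.20, 4.82 and 5.52% and 5.89, 6.12 and 7.74%) and above Vmn1r and Olfr in all 18 libraries. Of 29 members tested for Suz12 and 26 for Ring1B, 0 were called in either, where 0% of 18049 and 0.085% of 17641 genes changed. An unadjusted p under 0.05 was seen for 2 members with Suz12 (Vmn2r9 and Vmn2r111) and 1 with Ring1B (Vmn2r19), and limma without trend and robust options called 0.

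The 2 most covered by both were the neighbours Vmn2r112 and Vmn2r111. Vmn2r112 had Suz12 on 57.7, 74.4 and 38.4% at 0 h, 78.8, 68.6 and 37.7% at 12 h and 18.3, 34.2 and 61.2% at 24 h. Vmn2r111 had Suz12 on 39.7, 37.6 and 41.0% at 0 h, 77.0, 21.3 and 56.2% at 12 h and 10.07, 0 and 20.0% at 24 h. Both had high H3K9me3 and no H3K27me3 or H2AK119Ub peak. Ring1B on Vmn2r111 was 54.4, 64.6 and 43.4% at 0 h, 82.4, 73.5 and 18.1% at 12 h and 26.4, 24.4 and 29.2% at 24 h. In Vmn2r111 the 24 h libraries lay below the 0 h ones for both proteins, without passing (adjusted p = 0.50 and 0.69). Next by mean of both was Vmn2r129, the gene with both H3K27me3 and H2AK119Ub, which had a peak in all 18 lists. It had Suz12 on 9.61, 76.8 and 22.7% at 0 h, 20.6, 10.325 and 27.9% at 12 h and 30.9, 36.4 and 66.1% at 24 h. Its Ring1B was 48.7, 23.4 and 37.3% at 0 h, 35.7, 39.4 and 68.3% at 12 h and 8.325, 66.2 and 8.31% at 24 h. The times overlap for both proteins in this gene. Vmn2r68 reached at most 27.4% for Suz12 and 70.8% for Ring1B, both at 12 h. Vmn2r9, which had the smallest p for Suz12, had 11.3, 27.8 and 10.45% at 0 h, 0.973, 3.27 and 0% at 12 h and 8.26, 0 and 0% at 24 h. Its 24 h libraries lay below the 0 h ones, without passing (adjusted p = 0.47). Of the other genes with the smallest p, Vmn2r81 and Vmn2r22 reached at most 9.01 and 9.97% for Suz12, and Vmn2r115, Vmn2r19 and Vmn2r90 at most 32.1, 18.5 and 7.07% for Ring1B.

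A list of 53 genes linked to vomeronasal sensory neurons was examined, of which 51 were in the table. It was not limited to genes of V2R neurons. With H3K27me3, 8 of 16 tested rose between 0 and 24 h and 0 fell, where 56.5% of all genes tested were called higher. They included 3 H2-M10 genes, nonclassical MHC genes expressed in V2R neurons. H2-M10.5 was at 0, 47.1 and 82.5% at 0, 12 and 24 h, and H2-M10.1 at 0, 19.5 and 62.9%. Both had no peak at 0 h and entered the test through the later libraries alone, so their tests are not given as support. H2-M10.3 was at 14.8, 58.8 and 71.3% (adjusted p = 0.017). H2-M10.6 was at 36.6% at 24 h and did not pass (adjusted p = 0.067), H2-M10.4 was at 2.52% and H2-M10.2 at 0. Kirrel3, Bcl11b, Meis2 and Ano1 were among the rest. With H3K9me3, 1 of 6 tested was called, where 51.4% of all genes were: Kcnj3, a potassium channel subunit, rose by 37.6 ± 7.19 points (adjusted p = 0.0023). The formyl peptide receptors Fpr-rs3, Fpr-rs6 and Fpr-rs7 were covered at 86.8, 84.6 and 100% at 24 h without a call. With H2AK119Ub 3 of 13 rose (Lhx2, Plcb2 and Gnao1), where 31% of all genes did. With H3K27ac 1 of 5 rose (Atf5), where 1.46% of all genes tested changed. With Suz12 and Ring1B 0 of 22 and 0 of 19 were called, where 0% and 0.085% of all genes tested changed. Gnao1 with H2AK119Ub and Atf5 with H3K27ac had no peak at 0 h. They entered the test through the later libraries alone, so their tests are not given as support.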

How the data were processed

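One peak list per sample was deposited by the authors, called from each library separately. The names of the lists carry Cast and the peak caller SEACR, set to norm relaxed for histone marks, while Suz12 and Ring1B lists were stringent with a top share of 0.01. The submitters' processing notes give the build as mm10 and list Trimmomatic 0.32, Bowtie2 2.3.4.1, Picard and deepTools 3.5.1. How reads were split by allele, which SEACR version was run and how deeply libraries were sequenced is not given in the sources used here. Deposited columns hold the total and the highest coverage signal of each peak, which served to rank and filter within a list. Depth is unknown, so no interval for counting error can be given.

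Overlapping peaks were merged and the covered percent was computed for every protein-coding and lncRNA gene with 2 kb on each side. Genes with a peak in at least 3 libraries of a mark entered limma 3.58.1 under R 4.3.3 (moderated F-test over the 3 times, trend and robust), adjusted over all genes tested. A call between 2 times needs an adjusted p and an unadjusted contrast p under 0.05, and adjusted p-values in the text are from this test. The procedure was tested on simulated data. Other steps used Python 3.11.15, pandas 2.3.3, numpy 2.4.6, matplotlib 3.10.9 and edlib 1.3.9.post1, which gave the identity of promoter windows. Promoter windows matched by gene for 115 members.

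The members, the gene lists and the tests were chosen with earlier results of these data known. For each mark up to 10 called members with the largest difference between 24 and 0 h are named, or the 5 with the smallest p where fewer than 3 were called. The 10 members with most H3K9me3, the most covered member of each other mark and of each cluster, and the family C genes are named too. The values of members outside this rule were chosen after they were seen. A gene of the list of genes linked to vomeronasal neurons is not reported by name here. Alternatives were scaling by autosomal coverage, lists of equal length, stricter lists of the stronger peaks by total signal, gene bodies alone, a minimum of 1 library, limma without trend and robust options, a replicate term and leaving out each library.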

Additional observations from a re-analysis of the deposited data

Results flagged for a closer look

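Of 74 groups of 4 or 5 libraries examined, 17 held a library that stood apart from the others of its group, and chance gives about 1 in 20 for values free to vary. In 11 of the 17 the other libraries were tied at 0 or 100%, where any single different library stands apart, so that rate does not apply to them. Among family means these were 2.45% for H3K27me3 in 24 h replicate 4 (the others 1.60 to 1.68%), 0.375% for H2AK119Ub in 24 h replicate 5 (the others 0 to 0.108%) and 10.08% for H3K9me3 in 12 h replicate 1 (the others 13.02 to 13.6%). For H2AK119Ub, Vmn2r129 had 45.7% in 24 h replicate 5 and 0 in the other 4.

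The remaining 13 were single members for H3K9me3. In 0 h replicate 2, the most extensive 0 h list, Vmn2r103 had 54.6%, Vmn2r111 had 40.5% and Vmn2r51 had 12.2%, with 0 in the other 3 libraries. In 0 h replicate 3 Vmn2r61 had 8.69%, again with 0 in the others. In 0 h replicate 1, the shortest list, Vmn2r67 was lowest at 31.5% and Vmn2r70 at 0%. At 12 h, Vmn2r60 was lowest at 31.1% in replicate 2, Vmn2r18 highest at 24.4% in replicate 3 and Vmn2r118 highest at 5.45% in replicate 4. At 24 h, Vmn2r101 at 58.3% and Vmn2r68 at 88.2% were lowest in replicate 2, Vmn2r67 at 99.1% in replicate 1 and Vmn2r70 at 65.9% in replicate 4. The part of list length in these values was not tested.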

How the results depend on the processing

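The number of members called for H3K9me3 (16 of 50) was 0 of 15 with lists of equal length and 7 of 35 with stricter lists. It was between 9 and 19 with 1 library left out. Over all genes the shares called were 51.4%, 0%, 43.4% and 37.7 to 53.4%. For H3K27me3 (5 of 6) it was 3 of 6 after scaling by autosomal coverage and 0 of 0 with lists of equal length. It was 2 of 3 with stricter lists, 3 of 6 with gene bodies alone and 3 to 5 with 1 library left out. Over all genes the shares called were 56.5%, 19.7%, 10.0%, 54.7%, 52.6% and 34.3 to 65.0%. Counts for the other marks were 0 under every alternative. The difference of the Vmn2r mean between 24 and 0 h was 7.41 points for H3K9me3, but -5.24 after scaling, 0.407 with lists of equal length and 4.44 with stricter lists, and 6.21 to 8.78 with 1 library left out. For H3K27me3 it was 1.80, against 0.901, 0 and 1.27 under the same settings and 1.59 to 1.88 with 1 library left out. For H2AK119Ub it was -0.257, and -0.783 after scaling, with -0.347 to -0.113 when 1 library was left out; it was -1.05 to -0.643 for Ring1B and -1.09 to -0.303 for Suz12. As ratios to autosomal coverage, the H3K9me3 differences of Vmn2r78, Vmn2r100, Vmn2r112, Vmn2r68 and Vmn2r67 turned to -2.17, -0.0061, -14.8, -26.9 and -21.5, and Vmn2r112 was at -8.47 points with lists of equal length. The cause was not tested. Of the other values for named genes under alternatives that keep all libraries, 389 kept their side of the threshold, 22 fell below it and 1 passed it. Direction was compared only where the gene was called in the main setting or in the alternative.

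Same-numbered libraries of different times did not deviate together (no correlation over 0.1 for any mark). This does not exclude that the numbers pair samples, since a shared animal need not give such a correlation. The labels name no animals, so the main test used no pairing. Numbers were taken from the sample titles, and for 3 of the H3K27me3 libraries at 24 h the list names carry other numbers, so the pairing and the block depend on that choice. With a replicate block 14 of 50 members were called for H3K9me3 and 4 of 6 for H3K27me3, where 48.5% and 34.8% of all genes were. For the other marks 0 members were called.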
